A study of Homo sapiens with 6 samples.

Results

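The platelet-derived growth factor (PDGF) family was followed across the libraries through its 4 ligand genes, PDGFA, PDGFB, PDGFC and PDGFD, and its 2 receptor genes, PDGFRA and PDGFRB. They were the 6 entries whose gene symbol names a PDGF ligand or a PDGF receptor tyrosine kinase, out of 23355 entries used. All libraries came from the fibroblast line HFL-1, derived from human fetal lung, after transfection with small interfering RNA (siRNA). The control group received a non-targeting siRNA (siNTC), and the other groups received siTAZ #1 or siTAZ #2, which are different siRNAs against WWTR1, the gene for the transcriptional co-activator TAZ. RNA was taken 48 h after transfection, and each of the 3 groups held 2 libraries, labelled rep1 and rep2. No untransfected cells were part of the comparison, so every group carried an siRNA and the transfection reagent.

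PDGFs are secreted as dimers joined by disulfide bonds, and each dimer brings a pair of receptor chains together so that their tyrosine kinase domains phosphorylate each other. PDGFRα, from PDGFRA, binds the A, B and C chains, and PDGFRβ, from PDGFRB, binds the B and D chains. PDGF-C and PDGF-D leave the cell in a latent form and bind their receptors after a protease has removed their CUB domain. In the lung, PDGF signalling is known for driving the growth and migration of mesenchymal cells, including fibroblasts, myofibroblast precursors and pericytes.

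The libraries held 15648055 to 32078188 counts each. WWTR1, the targeted gene, stood at 132 and 131 CPM, read counts scaled to library size with TMM factors, in the siNTC libraries. It stood at 26.4 and 28.4 CPM with siTAZ #1 and at 46.1 and 43.1 CPM with siTAZ #2, log2 fold changes of -2.26 (FDR 0.00062) and -1.56 (FDR 0.00068). Here FDR is the Benjamini-Hochberg adjusted p of the quasi-likelihood test of edgeR over 14053 genes, and a gene was called when its FDR was under 0.05. WWTR1 was also lower with siTAZ #1 than with siTAZ #2, by a log2 difference of -0.70 (FDR 0.0050), so the siRNAs left different amounts of the target. In siTAZ #1 replicate 2, counts were nearly missing for the 579 tested genes from RANGAP1 on chromosome 22 to the end of chromosome Y, which took 0.248% of that library and 3.58% to 3.75% of the others. No PDGF gene lies there, and PDGFB starts 1999.8 kb before RANGAP1. All 9 fibroblast markers were above 1 CPM. Their summed level was 34701 to 34833 CPM with siNTC, 22203 to 23227 CPM with siTAZ #1 and 26632 to 28328 CPM with siTAZ #2. COL1A2 and COL1A1 were its largest members with siNTC. COL1A2, DCN and LUM fell with both siRNAs, COL1A1 with siTAZ #1 only, and COL3A1 and VIM with siTAZ #2 only. FBN1 rose with siTAZ #1 (0.74, FDR 0.0054) and fell with siTAZ #2 (-0.89, FDR 0.0023). THY1 rose with siTAZ #2 (0.50, FDR 0.010). Of the 4 platelet markers, each was under 1 CPM in every library and PF4 was at 0. In bulk RNA, fewer cells of a type and less RNA per cell cannot be told apart.

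Regulatory sequence at the start sites of the members that rose is shown because these genes are read below side by side. RefSeq (GRCh38.p14) promoters were found for 4 of the 6 genes, PDGFA, PDGFD, PDGFRA and PDGFRB, with 8 promoters in all, and the 250 bases before each start were searched on both strands. Capitals mark AP-1 (TGANTCA) matches in the first sequence and SP1 (GGGCGG) matches in the other sequences, read 5′ to 3′.
PDGFRA, upstream start (chr4:54229043-54229292, plus strand): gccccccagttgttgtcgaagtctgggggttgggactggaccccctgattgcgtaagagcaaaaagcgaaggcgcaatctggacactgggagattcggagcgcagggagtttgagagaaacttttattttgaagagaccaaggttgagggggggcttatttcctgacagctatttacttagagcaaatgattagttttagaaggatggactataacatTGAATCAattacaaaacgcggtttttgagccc
PDGFRA, downstream start (chr4:54233710-54233959, plus strand): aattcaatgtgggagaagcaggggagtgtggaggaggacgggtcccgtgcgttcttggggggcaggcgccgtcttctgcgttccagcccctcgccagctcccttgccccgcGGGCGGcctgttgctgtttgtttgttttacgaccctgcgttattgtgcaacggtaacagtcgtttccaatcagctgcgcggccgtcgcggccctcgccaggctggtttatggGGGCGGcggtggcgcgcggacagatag
PDGFD (chr11:104164148-104164397, minus strand): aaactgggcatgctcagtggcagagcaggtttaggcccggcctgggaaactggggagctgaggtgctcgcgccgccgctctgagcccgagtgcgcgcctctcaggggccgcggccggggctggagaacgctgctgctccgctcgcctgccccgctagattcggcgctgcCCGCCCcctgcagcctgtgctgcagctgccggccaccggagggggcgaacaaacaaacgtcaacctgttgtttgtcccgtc
PDGFRB (chr5:150155846-150156095, minus strand): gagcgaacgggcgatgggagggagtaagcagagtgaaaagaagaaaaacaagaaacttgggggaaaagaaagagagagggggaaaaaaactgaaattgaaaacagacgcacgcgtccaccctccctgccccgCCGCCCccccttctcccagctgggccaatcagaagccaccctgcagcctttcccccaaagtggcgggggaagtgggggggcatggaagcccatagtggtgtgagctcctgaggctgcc

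The upstream PDGFRA start held 1 AP-1 match, TGAATCA, and the downstream start held 2 SP1 matches. PDGFD and PDGFRB held 1 SP1 match each, and the promoters of PDGFA held 1 to 5. An SP1 match was present in 42.6% of all 35116 promoters and an AP-1 match in 6.57%. The letters recognized by TEAD factors, the DNA-binding partners of TAZ (GGAATG), occurred in 11.9% of all promoters, and TATAAA in 10.7%; neither was found in these 8 windows. No match overlapped another in the sequences shown.

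Per length, the receptors and PDGFC were the abundant members of the family in these fibroblasts. Levels between genes are given as CPM per kb of exon, with the exons of all transcripts of a gene merged, as mean ± SD over 2 libraries. With siNTC, PDGFRA stood at 44.4 ± 3.41, PDGFRB at 35.1 ± 0.351 and PDGFC at 20.3 ± 1.65 CPM per kb, percentiles 93.6, 91.4 and 83.8. Percentiles are among 12853 genes with a length that passed the filter on low counts, outside the region of nearly missing counts. PDGFD stood at 3.399 ± 0.976 and PDGFA at 1.83 ± 0.230 CPM per kb, in percentiles 39.9 and 27.7. PDGFB was close to the limit of detection at 0.0317 ± 0.0225 CPM per kb, percentile 0.669. With merged exons, no pair of neighbours in this order overlapped between the siNTC libraries. With the longest transcript as the length, PDGFD and PDGFA overlapped, at 4.30 and 2.85 against 3.33 and 2.78 CPM per kb, and the other neighbours did not.

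**Figure D1:**
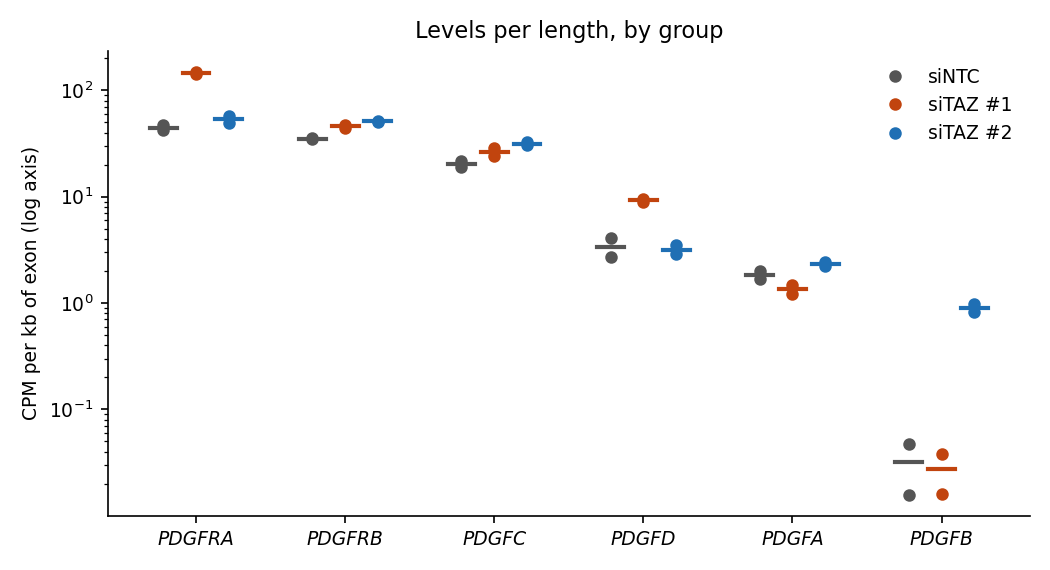
Level of each PDGF gene in CPM per kb of exon in the 6 libraries, on a log axis, coloured by siRNA. The receptors and PDGFC lie highest, PDGFB lies lowest with siNTC (0.0317 CPM per kb), and the siTAZ #1 libraries of PDGFRA (146 CPM per kb) lie above every other value.

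The receptors and PDGFC remained the most abundant members with either siRNA. PDGFRB rose with both siRNAs. With siTAZ #1, PDGFRA and PDGFD also rose, and with siTAZ #2, PDGFB and PDGFC also rose. No PDGF gene fell in either comparison with siNTC. These are 3 of 6 genes called higher with siTAZ #1, where 10.8% of all tested genes were called higher and 9.78% lower, and 3 of 6 with siTAZ #2, where 14.1% were called higher and 14.4% lower. PDGFC, PDGFRA and PDGFRB were higher in all 4 siTAZ libraries than in both siNTC libraries, a pattern held by 18.6% of all tested genes. Each count of 3 fell to 1 without siNTC replicate 2, and the siTAZ #2 count also fell to 1 without siNTC replicate 1. The shares of all genes called in those refits are not given here. All 6 genes passed the filter on low counts, but PDGFB passed only through its siTAZ #2 libraries. The comparisons share the siNTC libraries, so their values are given side by side and are not independent of each other. With 2 libraries per group, the p-values measure the spread between these libraries, and that spread is estimated across groups and genes.

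**Figure D2:**
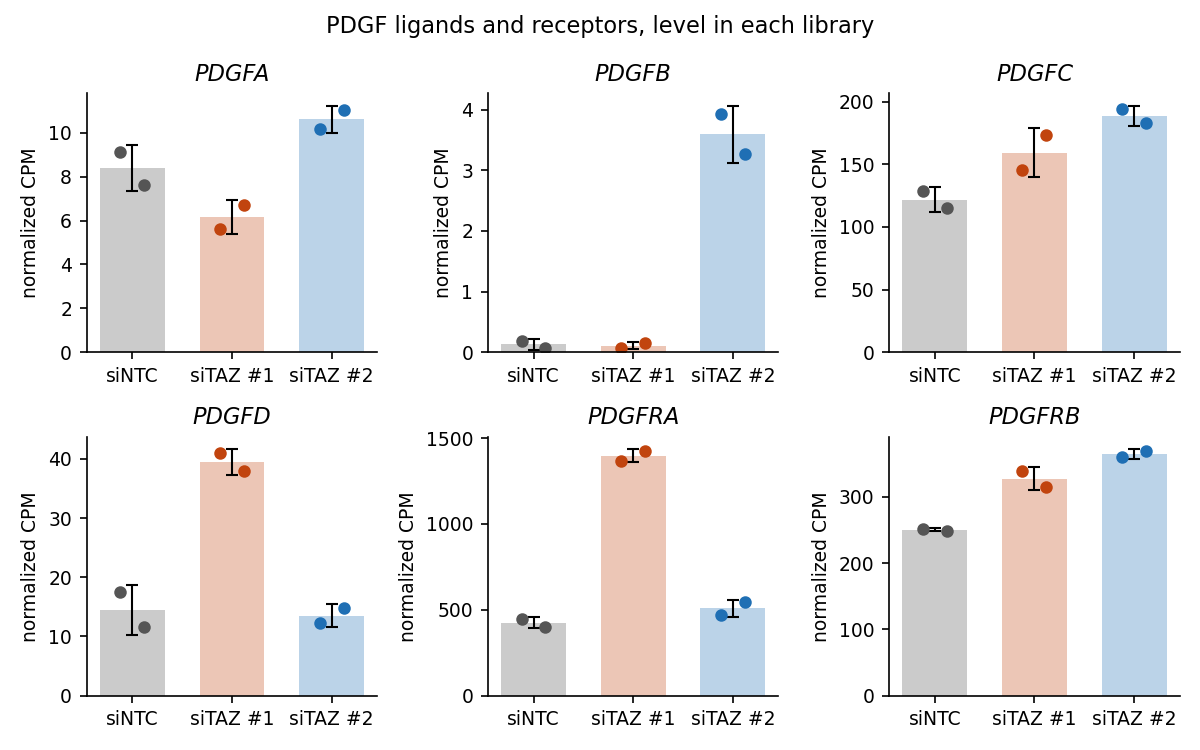
CPM of each PDGF gene in every library, 1 panel per gene with its own axis from 0; bars are group means, error bars are SD (n = 2) and points are libraries. PDGFRA and PDGFD are highest with siTAZ #1, PDGFB is near 0 outside siTAZ #2, and PDGFC and PDGFRB are higher in all siTAZ libraries than in the siNTC libraries.

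Among the ligands, PDGFC, which signals mainly through PDGFRα and is activated by tissue plasminogen activator, was the most abundant (GRCh37 chromosome 4, 157681606 to 157892951, minus strand). Its level was 129 and 115 CPM in the siNTC libraries, 145 and 173 CPM with siTAZ #1 and 194 and 183 CPM with siTAZ #2. The siNTC libraries were the lowest and the siTAZ #2 libraries the highest, with no overlap between groups. PDGFC rose 1.55-fold with siTAZ #2 (95% interval 1.27 to 1.88, log2 fold change 0.63 ± 0.12 SE, FDR 0.012). With siTAZ #1 its log2 fold change was 0.39 ± 0.12 (FDR 0.065), which missed the threshold, and the difference between the siRNAs was -0.24 (95% interval -0.53 to 0.04, FDR 0.17). The call with siTAZ #2 was lost when either siNTC library or either siTAZ #2 library was left out. The log2 fold change was then 0.70 without siNTC replicate 1, 0.53 without siNTC replicate 2 and 0.58 without siTAZ #2 replicate 1. The call was kept in the fit of the 4 siNTC and siTAZ #2 libraries (0.63, FDR 3.4e-05). It was also kept with the genes of nearly missing counts removed (0.63, FDR 0.00058). Without siTAZ #1 replicate 1, PDGFC was called with siTAZ #1 (FDR 0.0019), and without siTAZ #1 replicate 2 the siRNAs differed (FDR 0.022).

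PDGFD, whose dimer activates PDGFRβ after cleavage by urokinase, moved with siTAZ #1 (GRCh37 chromosome 11, 103777917 to 104035107, minus strand). The siNTC libraries read 17.4 and 11.5 CPM, the siTAZ #1 libraries 41.0 and 37.9 CPM, and the siTAZ #2 libraries 12.2 and 14.9 CPM. The siTAZ #1 libraries lay above all others, while the siTAZ #2 libraries lay between the siNTC libraries. PDGFD rose 2.72-fold with siTAZ #1 (95% interval 1.83 to 4.04, log2 fold change 1.44 ± 0.23, FDR 0.011), and its fold with siTAZ #2 was 0.933 (95% interval 0.631 to 1.38, FDR 0.79). The siRNAs differed from each other by 1.54 on the log2 scale (FDR 0.0062). The siNTC libraries are the most spread for this gene: without siNTC replicate 2 the log2 fold change with siTAZ #1 was 1.17 (FDR 0.063), and without siNTC replicate 1 it was 1.76. With siTAZ #2 the log2 fold change was 0.21 without siNTC replicate 1 and 0.03 without siTAZ #2 replicate 1. PDGFD overlaps DDI1 on the other strand in exonic sequence, and DDI1 had 0 to 2 counts in each library.

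PDGFA, the classical ligand of PDGFRα, did not pass the test against siNTC (GRCh37 chromosome 7, 536895 to 559933, minus strand). It read 9.13 and 7.64 CPM with siNTC, 5.61 and 6.72 CPM with siTAZ #1 and 10.2 and 11.1 CPM with siTAZ #2. The siTAZ #1 libraries lay below and the siTAZ #2 libraries above the siNTC libraries, with no overlap. The log2 fold changes were -0.44 ± 0.21 (95% interval -0.95 to 0.07, FDR 0.19) with siTAZ #1 and 0.34 ± 0.21 (95% interval -0.17 to 0.85, FDR 0.27) with siTAZ #2. Between the siRNAs PDGFA was lower with siTAZ #1 by -0.78 (95% interval -1.29 to -0.27, FDR 0.038), a call that was lost in 10 of 17 alternative settings, with an FDR of up to 0.22.

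PDGFB, the ligand that engages both receptors and that platelets and endothelial cells are known to make, was counted in numbers only with siTAZ #2 (GRCh37 chromosome 22, 39619364 to 39640987, minus strand). The siNTC libraries held 3 and 1 counts, the siTAZ #1 libraries 1 and 5 counts, and the siTAZ #2 libraries 84 and 54 counts. These are 0.190 and 0.0631 CPM, 0.0645 and 0.153 CPM, and 3.93 and 3.26 CPM. The exact Poisson 95% intervals of the siTAZ #2 libraries, 3.13 to 4.86 and 2.45 to 4.26 CPM, lay above those of every other library, the highest of which ended at 0.556 CPM; they cover counting error only.

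Summed per group and scaled to depth, the 138 counts with siTAZ #2 were 28.7 times the 4 counts with siNTC (exact binomial 95% interval 11.0 to 107). With siTAZ #1 the same ratio was 0.986 (0.234 to 4.75), so that a change was not detectable at this depth. These intervals cover counting error only and leave out the spread between replicates. The fitted log2 fold change with siTAZ #2 was 4.76 ± 0.63 (FDR 0.0042), and it depends on the prior count of the fit because siNTC is so low. PDGFB entered that fit only through the siTAZ #2 libraries, and with no filter on low counts the value was 4.74 (FDR 0.0027). PDGFB differed between the siRNAs by -4.83 on the log2 scale (FDR 0.0034), lower with siTAZ #1. Markers of platelets and endothelium were read in the same libraries, and their part in the PDGFB result was not tested. All 4 platelet markers summed to 0.121 to 0.234 CPM with siTAZ #2 against 0.252 to 0.317 CPM with siNTC, and the 7 endothelial markers summed to 27.3 to 32.7 CPM against 42.7 to 43.3 CPM. Most of the endothelial sum was TEK, which fell with siTAZ #2 (-0.67, FDR 0.013), and other members went the other way. VWF was at 0.571 and 0.884 CPM with siNTC, 1.81 and 0.859 with siTAZ #1 and 1.26 and 2.96 with siTAZ #2 (log2 fold change 1.52, FDR 0.14). PECAM1 was at 0.127 and 0.189 CPM with siNTC, 0.516 and 0.337 with siTAZ #1 and 0.374 and 0.362 with siTAZ #2, and it did not pass the filter on low counts.

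As shares of the summed ligand level per kb, PDGFC made up 77.8% and 81.3% in the siNTC libraries, 69.1% and 73.5% with siTAZ #1 and 84.2% and 81.9% with siTAZ #2. PDGFD made up 14.8% and 11.5%, then 27.4% and 22.6%, then 7.44% and 9.38%. PDGFA made up between 3.49% and 7.21% of the ligand level in all libraries, and PDGFB reached 2.56% and 2.20% with siTAZ #2. PDGFC was the largest share in each library. The PDGFD share was lower with siTAZ #2 than in either siNTC library, while the level of PDGFD itself lay between the siNTC libraries and that of PDGFC was higher. These shares describe mRNA and were not tested.

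Of the receptors, PDGFRA showed the larger change with siTAZ #1 (GRCh37 chromosome 4, 55095447 to 55164412, plus strand). The siNTC libraries read 447 and 401 CPM, the siTAZ #1 libraries 1369.5 and 1424 CPM, and the siTAZ #2 libraries 472 and 544 CPM. The siTAZ #1 libraries stood far above the rest, and the siTAZ #2 libraries stood just above siNTC. PDGFRA rose 3.30-fold with siTAZ #1 (95% interval 2.75 to 3.95, log2 fold change 1.72 ± 0.11, FDR 0.00084), and all 17 alternatives kept the call, with log2 fold changes of 1.63 to 1.79. With siTAZ #2 its fold was 1.20 (95% interval 1.00 to 1.43, log2 fold change 0.26, FDR 0.11). That FDR became 0.025 without siTAZ #1 replicate 1 and 0.023 without siTAZ #1 replicate 2. On the siNTC and siTAZ #2 libraries only, it was 0.029 in edgeR's exact test and 0.031 in the fit of 4 libraries. The call with siTAZ #2 thus depended on the setting. The siRNAs differed by 1.46 on the log2 scale (FDR 0.00094).

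PDGFRB was higher with both siRNAs by a smaller factor (GRCh37 chromosome 5, 149493402 to 149535435, minus strand). It read 252 and 249 CPM with siNTC, 339 and 315 CPM with siTAZ #1 and 359.7 and 369.7 CPM with siTAZ #2. Both siTAZ groups lay above siNTC without overlap. PDGFRB rose 1.31-fold with siTAZ #1 (95% interval 1.15 to 1.49, log2 fold change 0.39 ± 0.08, FDR 0.020) and 1.46-fold with siTAZ #2 (95% interval 1.28 to 1.66, log2 fold change 0.54 ± 0.08, FDR 0.0051). The difference between the siRNAs was -0.16 (95% interval -0.34 to 0.03, FDR 0.18), which did not pass. Leaving out siNTC replicate 1 or 2 ended both calls, with FDRs of 0.14 and 0.16 for siTAZ #1 and 0.061 and 0.066 for siTAZ #2. The siTAZ #1 call also ended without siTAZ #2 replicate 2 (FDR 0.055), in the fit of 4 libraries (0.051) and in edgeR's exact test (0.57). The 8 pericyte and smooth muscle markers summed to 1395 to 1556 CPM with siNTC, 1425 to 1733 CPM with siTAZ #1 and 1042 to 1095 CPM with siTAZ #2, and their part in the result was not tested. TAGLN, at 777 and 911 CPM with siNTC, made up most of that sum. It fell with siTAZ #2 (-0.81, FDR 0.021), as did ACTA2 and CSPG4, whereas NOTCH3 (1.55, FDR 0.0012), MCAM (0.64, FDR 0.0088) and DES (0.99, FDR 0.039) rose. With siTAZ #1, ACTA2 (0.59, FDR 0.013) and NOTCH3 (0.81, FDR 0.011) rose, and no other of these markers passed.

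The ratio of the receptors was highest with siTAZ #1 and is given as a description, with no test. The ratio of PDGFRA to PDGFRB, each per kb, was 1.32 and 1.21 with siNTC, 3.02 and 3.38 with siTAZ #1, and 0.981 and 1.10 with siTAZ #2. The siTAZ #1 libraries lay above all others and the siTAZ #2 libraries below both siNTC libraries. In log2 units the ratio was 0.34 ± 0.10, 1.67 ± 0.12 and 0.05 ± 0.12 (SD, n = 2). With siTAZ #2 the receptors overlapped in level, at 49.5 and 56.9 CPM per kb for PDGFRA and 50.4 and 51.8 CPM per kb for PDGFRB. Taking the longest transcript in place of merged exons moved the log2 ratio to 0.60, 1.93 and 0.31.

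**Figure D3:**
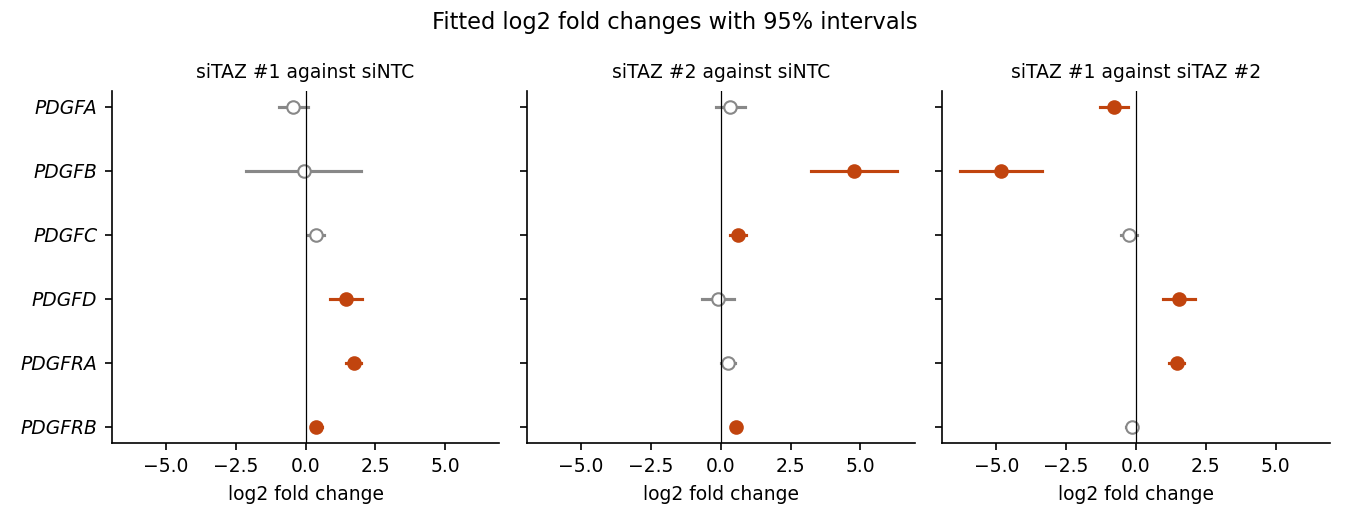
Log2 fold change of each PDGF gene in the 3 comparisons, with 95% intervals; filled points have an FDR under 0.05. PDGFRA (1.72) and PDGFD (1.44) stand out with siTAZ #1 and PDGFB (4.76) with siTAZ #2, and PDGFRB is filled in both comparisons with siNTC (0.39 and 0.54).

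In the direct comparison of the siRNAs, 4 of 6 PDGF genes differed: PDGFD and PDGFRA were higher with siTAZ #1, and PDGFA and PDGFB were higher with siTAZ #2. Of all tested genes, 15.2% were called higher and 13.4% lower with siTAZ #1 than with siTAZ #2. The remaining members, PDGFC and PDGFRB, differed by less than the test could call. PDGFB passed the filter on low counts only through its siTAZ #2 libraries, the group where it was high. With no filter on low counts, in edgeR's exact test and in the fit of 4 libraries the count was 3, as PDGFA was lost.

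Of the proteins that release or hold PDGF ligands, the plasminogen activators rose with both siRNAs. PLAT, tissue plasminogen activator, which cleaves latent PDGF-C, stood at 124 ± 1.65 CPM with siNTC, 1241 ± 54.2 with siTAZ #1 and 586 ± 106 with siTAZ #2 (log2 fold changes 3.33, FDR 0.00058, and 2.25, FDR 0.00064). PLAU, urokinase, which cleaves latent PDGF-D, stood at 1082 ± 52.3, 3029.8 ± 90.4 and 1861 ± 101 CPM (1.49, FDR 0.00084, and 0.78, FDR 0.0026). Both calls were kept without any 1 library. NRP1, neuropilin-1, a co-receptor that binds growth factors of this superfamily, fell by 0.55 on the log2 scale with each siRNA (FDR 0.0062 and 0.0042). A2M, a plasma protease inhibitor that binds PDGF, was at 2.53 ± 1.35, 13.0 ± 2.55 and 8.89 ± 4.17 CPM and rose with siTAZ #1 (2.35, FDR 0.025) and siTAZ #2 (1.81, FDR 0.042). Without siNTC replicate 2, the siTAZ #1 FDR was 0.072 for NRP1 and 0.13 for A2M, and both were also lost without siNTC replicate 1. With siTAZ #2, NRP1 was lost without siNTC replicate 2 (FDR 0.051), and A2M was lost without siNTC replicate 1 or 2 or siTAZ #2 replicate 1 or 2 (FDR up to 0.19).

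This list of 11 genes had 10 tested members. Its median log2 fold change was 0.30 for siTAZ #1, where 5 rose, 3 fell and 2 did not pass. For siTAZ #2 the median was 0.69, and 6 rose, 1 fell and 3 did not pass. The medians over all tested genes were 0.02 and 0.01, with 10.8% called higher and 9.78% lower for siTAZ #1 and 14.1% higher and 14.4% lower for siTAZ #2. The counts of each list are to be read against these shares. Chosen after its values were seen, FURIN, the convertase that processes PDGF-A and PDGF-B precursors, fell with siTAZ #1 (-0.44, FDR 0.023) and rose with siTAZ #2 (0.88, FDR 0.0020), with a tested difference of -1.32 (FDR 0.00085) between the siRNAs. Its siTAZ #1 call was lost without siNTC replicate 1 (FDR 0.14) or siNTC replicate 2. PCSK6 did not pass the filter on low counts.

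Of the 33 receptor-proximal signalling genes, which carry the signal from the receptor to RAS, PI3K, PLCγ and STATs, 6 rose, 6 fell and 21 did not pass with siTAZ #1 (median 0.18; 10.8% of all genes rose and 9.78% fell). With siTAZ #2, 5 rose, 7 fell and 21 did not pass (median -0.03; all genes 14.1% and 14.4%). STAT3, a transcription factor phosphorylated downstream of many receptors, fell from 333 ± 13.3 CPM with siNTC to 119 ± 10.1 CPM with siTAZ #1 (-1.49, FDR 0.00098) and was at 353 ± 25.7 CPM with siTAZ #2 (0.09, FDR 0.56). NRAS, a RAS GTPase, went from 125 ± 7.52 CPM to 216 ± 8.12 CPM with siTAZ #1 (0.78, FDR 0.0051) and to 46.9 ± 4.02 CPM with siTAZ #2 (-1.42, FDR 0.00076). The siRNAs differed for STAT3 by -1.57 (FDR 0.00072) and for NRAS by 2.20 (FDR 0.00050). HRAS, another RAS GTPase, rose with both (0.67, FDR 0.039, and 0.77, FDR 0.020). STAT5B fell with both (-0.55, FDR 0.034, and -0.67, FDR 0.014). Without siNTC replicate 2, the siTAZ #1 FDR was 0.063 for NRAS and 0.17 for STAT5B, and without siNTC replicate 1 it was 0.19 for HRAS. With siTAZ #2, HRAS (FDR up to 0.12) and STAT5B (FDR up to 0.090) were lost without either siNTC library and without siTAZ #2 replicate 1, and STAT5B also without siTAZ #2 replicate 2.

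Of 18 negative regulators of receptor tyrosine kinases, 9 rose, 2 fell and 7 did not pass with siTAZ #1 (median 0.52), where 10.8% of all genes rose and 9.78% fell. With siTAZ #2, 6 rose, 2 fell and 10 did not pass (median 0.19), where 14.1% of all genes rose and 14.4% fell. SPRY4, a Sprouty inhibitor of RAS and MAPK signalling, went from 30.8 ± 0.571 CPM with siNTC to 118 ± 7.96 with siTAZ #1 (1.93, FDR 0.00084) and 89.4 ± 10.01 with siTAZ #2 (1.54, FDR 0.00092). DUSP6, a phosphatase of ERK, went from 28.6 ± 2.51 CPM to 113 ± 2.08 (1.98, FDR 0.00084) and 66.5 ± 5.43 (1.22, FDR 0.0016). SPRY4 and DUSP6 were called with every library left out in turn. DUSP4, a nuclear MAPK phosphatase, was at 4.90 ± 0.15, 28.2 ± 0.0617 and 13.3 ± 3.10 CPM (2.52, FDR 0.0018, and 1.43, FDR 0.0060). NF1, the RAS GTPase-activating protein neurofibromin, rose by 0.92 (FDR 0.0052) and 0.85 (FDR 0.0046). With siTAZ #2, DUSP4 was lost without siNTC replicate 1 or 2 (FDR up to 0.057) and NF1 without siNTC replicate 2 (FDR 0.052). With siTAZ #1, NF1 was lost without siNTC replicate 1 or 2 (FDR up to 0.063).

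**Figure D4:**
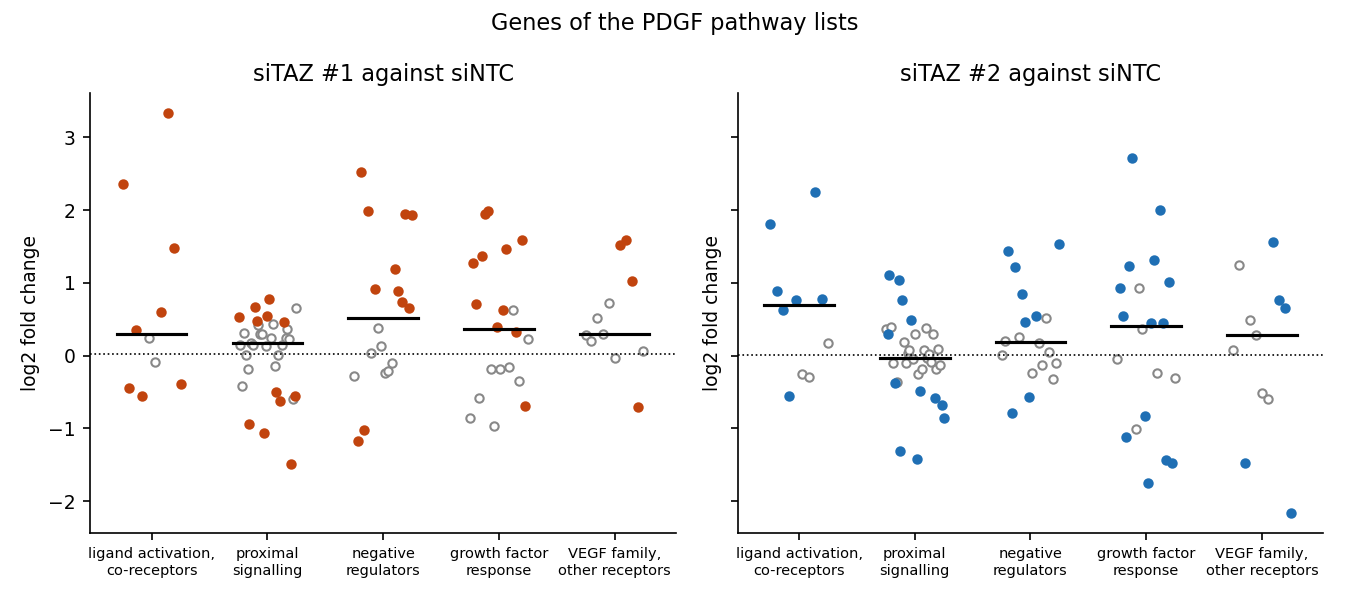
Log2 fold change of each tested gene of the 5 pathway lists against siNTC, for siTAZ #1 and siTAZ #2; filled points have an FDR under 0.05, black lines are list medians and dotted lines the median of all tested genes. The medians run from 0.18 to 0.52 with siTAZ #1 and from -0.03 to 0.69 with siTAZ #2.

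Of 20 growth factor response genes, mostly immediate early genes, 10 rose, 1 fell and 9 did not pass with siTAZ #1 (median 0.36), against 10.8% higher and 9.78% lower over all genes. With siTAZ #2, 9 rose, 5 fell and 6 did not pass (median 0.40), against 14.1% higher and 14.4% lower. IER3, an immediate early gene linked to survival, was at 77.8 ± 0.385 CPM with siNTC, 215 ± 21.97 with siTAZ #1 (1.47, FDR 0.00090) and 193 ± 0.851 with siTAZ #2 (1.31, FDR 0.00081). EGR1, a zinc finger transcription factor induced by growth factors, was at 38.4 ± 3.05, 98.6 ± 14.0 and 89.7 ± 0.178 CPM (1.36, FDR 0.0024, and 1.23, FDR 0.0023). Both were called with every library left out in turn. EGR2, a related zinc finger factor, rose by 1.94 (FDR 0.0075) and 2.72 (FDR 0.0021), and CCL2, a monocyte chemokine that PDGF induces, by 1.28 (FDR 0.0037) and 0.94 (FDR 0.0064). For siTAZ #1, EGR2 was lost without siNTC replicate 1 (FDR 0.062) and CCL2 without siNTC replicate 2 (FDR 0.054), and for siTAZ #2, CCL2 was lost without siNTC replicate 1 or 2 (FDR up to 0.065).

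Among 14 ligands and receptors of the related VEGF, CSF1 and KIT systems, 11 were tested. With siTAZ #1, 3 rose, 1 fell and 7 did not pass (median 0.30), where all genes had 10.8% called higher and 9.78% lower. With siTAZ #2, 3 rose, 2 fell and 6 did not pass (median 0.29), where all genes had 14.1% and 14.4%. VEGFA, the main angiogenic ligand, rose from 85.4 ± 1.35 CPM to 173 ± 8.75 with siTAZ #1 (1.02, FDR 0.0017) and 145 ± 9.14 with siTAZ #2 (0.77, FDR 0.0026). VEGFC, a lymphangiogenic ligand, was at 109 ± 0.812 CPM with siNTC and 114 ± 12.3 with siTAZ #1 (0.07, FDR 0.69), and fell to 24.4 ± 0.0420 with siTAZ #2 (-2.16, FDR 0.00050). The siRNAs differed for VEGFC by 2.23 (FDR 0.00050). PGF, placental growth factor, rose by 1.59 (FDR 0.049) and 1.57 (FDR 0.041) from 0.696 ± 0.0872 CPM. Both PGF calls were lost when any 1 of the siNTC or siTAZ #2 libraries was left out, and the siTAZ #1 call also without siTAZ #1 replicate 2 (FDR up to 0.25). FLT3, KDR and FIGF did not pass the filter. Across the 5 lists, 46 of 92 tested genes were called with each siRNA, in either direction; over all tested genes 10.8% were called higher and 9.78% lower with siTAZ #1, and 14.1% and 14.4% with siTAZ #2. Leaving out siNTC replicate 1 or 2 brought the siTAZ #1 count to 15 or 14 and the siTAZ #2 count to 22 or 21. Leaving out replicate 1 or 2 of siTAZ #2 brought its count to 26 or 29. With the genes of nearly missing counts removed, the counts were 55 with siTAZ #1 and 50 with siTAZ #2. The shares of all genes called in these refits are not given here, so a general loss or gain of calls cannot be told from a change in the lists. In edgeR's exact test on 4 libraries the siTAZ #1 count was 21, and NRP1 (FDR 0.27), FURIN (0.43), STAT5B (0.40), HRAS (0.34) and NRAS (0.070) were among the calls lost. HRAS with siTAZ #2 was also lost with an offset for GC content (FDR 0.093).

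The genes nearest to each PDGF gene on its chromosome were set beside it. Within 500 kb of PDGFB, 18 other genes were tested. With siTAZ #2, 1 of them rose and 3 fell, at log2 fold changes of -1.16 to 0.76, against 4.76 for PDGFB. The share called is near that of all tested genes, of which 14.1% rose and 14.4% fell. In siTAZ #1 replicate 2 these 18 genes were at a median of 103% of replicate 1, compared with 1.34% in the region where counts were nearly missing. PDGFRA had 3 tested neighbours, of which CHIC2 rose with siTAZ #1 (0.92, FDR 0.042) and siTAZ #2 (0.93, FDR 0.034) and KIT, a related receptor gene, was at -0.04 and -0.52 (FDR 0.97 and 0.49). PDGFRB had 12 tested neighbours, PDGFA 7 and PDGFC 1, and PDGFD had no tested neighbour in this window.

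**Figure D5:**
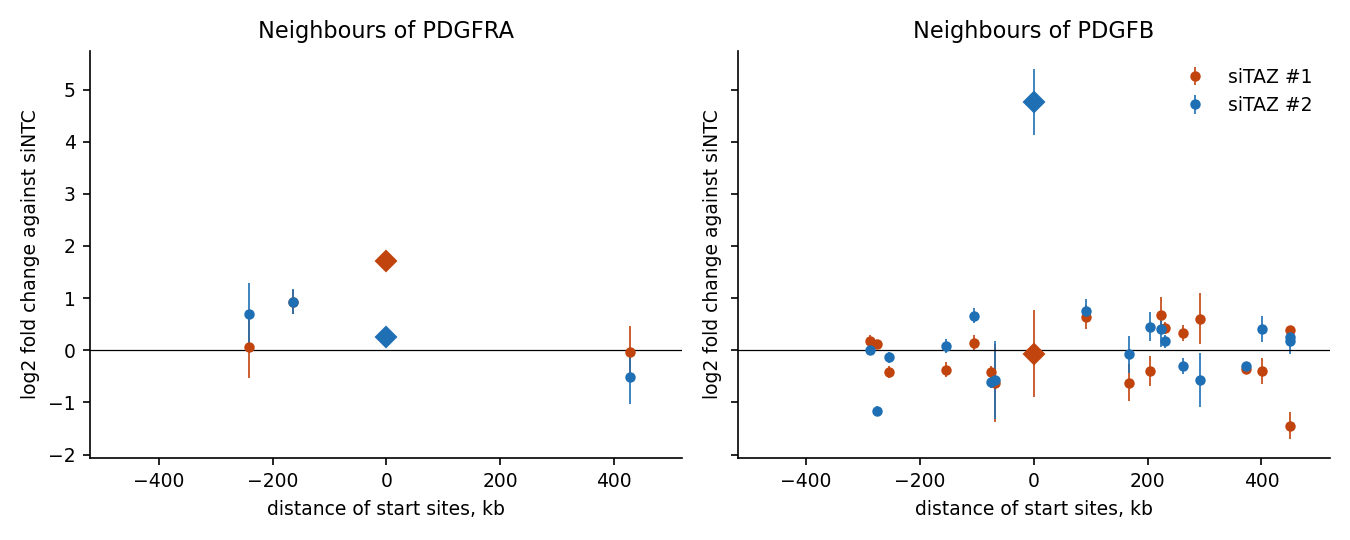
Log2 fold change against siNTC of the genes within 500 kb of PDGFRA and of PDGFB, by distance between start sites in kb, with SE bars. Diamonds are PDGFRA and PDGFB and points their neighbours. PDGFB with siTAZ #2 lies at 4.76 above 18 neighbours between -1.16 and 0.76, and PDGFRA with siTAZ #1 at 1.72 above 3 neighbours between -0.04 and 0.92.

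The genes whose level moved most like a PDGF gene over the 6 libraries were found by the root-mean-square difference of centred log2 CPM among 13468 candidates. For PDGFRA they were MMD (0.0771), PDLIM3 (0.136) and NRG1 (0.137), the last being neuregulin-1, a ligand of ERBB receptors. For PDGFD they were PDLIM3 (0.0837), PLA2G4A (0.0959), the cytosolic phospholipase A2, and LHFPL2 (0.160). PDLIM3, a cytoskeletal PDZ and LIM protein, thus appeared for both genes, with log2 fold changes of 1.60 with siTAZ #1 and 0.09 with siTAZ #2. For PDGFB they were RASGRP3 (0.332), an activator of RAS and RAP, HTR1D (0.376), a serotonin receptor, and AMIGO2 (0.511), a cell adhesion protein. RASGRP3 was at 2.82 CPM with siNTC, 1.68 with siTAZ #1 and 32.9 with siTAZ #2. HTR1D was at 0.127, 0.111 and 2.47 CPM. Like PDGFB, HTR1D was near the limit of detection outside siTAZ #2, so their likeness rests largely on the siTAZ #2 libraries. For PDGFC they were USP32P1 (0.0388), FDPS (0.0410), an enzyme of isoprenoid synthesis, and CDC73 (0.0445), a subunit of the PAF1 complex. For PDGFRB they were IDH1 (0.0296), the cytosolic isocitrate dehydrogenase, NLGN2 (0.0305) and MAN2B2 (0.0388). USP32P1 is a pseudogene, so its counts may include reads of a near-identical copy.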

How the data were processed

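RNA from 6 HFL-1 libraries was sequenced on an Ion Proton. The authors aligned the reads with TMAP (hg19), assigned them to genes with HTSeq (version 0.6.1 in the submitters' processing notes) and deposited whole-number counts that were not normalized. The strand setting is not given in the sources used here. Of 23368 entries, 13 that carry a date in place of a symbol were left out (0.0458% to 0.0506% of counts). Low counts were removed with filterByExpr, libraries were scaled by TMM, and 1 model of all libraries was tested by quasi-likelihood in edgeR 4.0.16 (R 4.3.3), with Benjamini-Hochberg adjustment over 14053 genes and a threshold of FDR 0.05. SE was the log2 fold change divided by the square root of F. The script was tested on simulated data that left out the genes with nearly missing counts, which the reported fit kept. Positions on GRCh37 were found for 21478 symbols, 1922 through a synonym. Promoters came from RefSeq GRCh38.p14.

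No permutation of 2 libraries against 2 can reach a p under 0.05. The counts of replicates differed beyond sampling noise (chi-square averaged over genes 5.35 for siNTC, 21.4 for siTAZ #1 and 11.2 for siTAZ #2). The members and lists were chosen with earlier results of these data known. The text names all 6 PDGF genes and WWTR1; from each list, up to 4 genes called in both siTAZ comparisons in 1 direction, by the lowest larger FDR, and the gene with the lowest FDR in each comparison; and the 3 genes most like each PDGF gene called with either siRNA. Genes outside this rule (FURIN, CHIC2, KIT, PDGFRL, FAM20C, DDI1, marker genes and untested list members) were chosen after their values were seen. Alternatives were DESeq2 1.42.0, edgeR's exact test, other size factors, filters, offsets for GC content (known for 95.6% of genes) and length, fits of 4 libraries, a replicate block and leaving out each library.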

Additional observations from a re-analysis of the deposited data

Results flagged for a closer look

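In the direct comparison of the siRNAs, 4 of 6 PDGF genes were called different by the edgeR quasi-likelihood test (2 libraries per group). Of all 14053 tested genes, 15.2% were called higher and 13.4% lower with siTAZ #1 than with siTAZ #2. The log2 difference of siTAZ #1 against siTAZ #2 was -0.78 for PDGFA (FDR 0.038), -4.83 for PDGFB (FDR 0.0034), 1.54 for PDGFD (FDR 0.0062) and 1.46 for PDGFRA (FDR 0.00094). WWTR1 itself was lower with siTAZ #1 by -0.70 (FDR 0.0050), and its part in these differences was not tested. Among these 4 genes, PDGFB passed the filter on low counts only through its siTAZ #2 libraries. The PDGFA call was lost in 10 of 17 alternative settings.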

How the results depend on the processing

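Of 301 recomputed values of the PDGF genes, 264 kept their direction and side of the threshold, 23 lost a call, 10 gained one and 4 changed sign without a call in either fit. The sign changes were PDGFB with siTAZ #1 at 0.85 without siNTC replicate 1 and 0.26 without siTAZ #1 replicate 1 (range over libraries left out -0.90 to 0.85), and PDGFD with siTAZ #2 at 0.21 without siNTC replicate 1 and 0.03 without siTAZ #2 replicate 1 (range -0.38 to 0.21). PDGFRA with siTAZ #1, and PDGFD and PDGFRA between the siRNAs, were called in every alternative that gave a value. Leaving out 1 library at a time gave 1 to 4 PDGF genes called with siTAZ #1, 1 to 4 with siTAZ #2 and 3 to 5 between the siRNAs, and 14 to 57 and 21 to 53 pathway genes with siTAZ #1 and siTAZ #2. The exact test called 21 pathway genes with siTAZ #1. The share of all genes called in each of these fits is not given here. A mean count of at least 50 left out PDGFB, and the exact test and the fit of 4 libraries gave PDGFB no value with siTAZ #1. With the stretch of nearly missing counts removed, the common dispersion was 0.0163 in place of 0.0807 and PDGFC was called with siTAZ #1 (0.37, FDR 0.026). With the same removal, the FDR of PDGFRA with siTAZ #1 went from 0.00084 to 2.2e-08. That of PDGFB with siTAZ #2 went from 0.0042 to 0.00013. What moved calls in the other settings was not tested.

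The replicate numbers did not pair the libraries: deviations of same-numbered libraries correlated at -0.0069, 0.011 and -0.18 over 13474 genes. With the replicate block, 29 pathway genes were called with siTAZ #1, and PDGFRB with siTAZ #1 (FDR 0.058) and PDGFA between the siRNAs (FDR 0.080) were lost; with the numbers crossed for siTAZ #1 and siTAZ #2, a pairing added after seeing the data, 3 PDGF genes differed in place of 4. With 2 libraries per group and 1 to 5 counts outside siTAZ #2, depth limits what can be said of PDGFB.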

Other observations

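PDGFRL, a receptor-like gene that lacks a kinase domain and is named here after its values were seen, was at 33.5 ± 0.734 CPM with siNTC, 50.7 ± 7.84 with siTAZ #1 (0.60, FDR 0.035) and 27.4 ± 0.0538 with siTAZ #2 (-0.29, FDR 0.18). The siRNAs differed by 0.89 on the log2 scale (FDR 0.0076). The siTAZ #1 call was lost without either siNTC library or either siTAZ #2 library, with an FDR of up to 0.20. FAM20C, a secretory pathway kinase gene near PDGFA that was also chosen after its values were seen, rose by 0.89 (FDR 0.0039) with siTAZ #1 and 1.24 (FDR 0.0011) with siTAZ #2, while PDGFA was at -0.44 and 0.34 without a call.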
